A study of Mus musculus with 14 samples.

Results

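The genes of the AMPA and kainate classes of ionotropic glutamate receptor were examined in H3K4me3 profiles of the mouse prefrontal cortex. The 9 genes were Gria1, Gria2, Gria3 and Gria4, which encode the AMPA receptor subunits GluA1 to GluA4, and Grik1, Grik2, Grik3, Grik4 and Grik5, which encode the kainate receptor subunits GluK1 to GluK5. A peak summit was assigned to a gene when it lay inside the gene or within 2 kb of either boundary. This gave 149 of the 153207 summits in the deposited table, 66 at the 4 AMPA receptor genes and 83 at the 5 kainate receptor genes. Of these, 135 lay inside a gene and 14 outside. All 149 had enough reads to be tested.

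The mark was profiled by ChIP-seq, sequencing of DNA that was pulled down with an antibody to it, in adult males of the strain C57BL/6J, 10 to 12 weeks of age. Control mice (3 libraries) lived in divided cages and met no aggressor. SDS10 mice (5 libraries) and SDS30 mice (5 libraries) met an unfamiliar, aggressive CD1 mouse briefly each day for 10 or 30 days of social defeat stress, lived beside one between sessions behind a perforated barrier, and were dissected 24 hours after the last session. Defeated mice had also been through behavioural tests before dissection; the labels give no test for the controls. No transgene or mutant allele is named for any group. Whether every library stands for its own animal is not stated in the labels, and the spread that the p-values rest on may therefore be technical.

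AMPA receptors are tetramers that carry most of the fast excitatory current in the cortex, and their number at a synapse changes with use. GluA2 makes them nearly impermeable to calcium. Kainate receptors act on both sides of the synapse: GluK1, GluK2 and GluK3 can form channels by themselves, whereas GluK4 and GluK5 bind kainate tightly and need a partner from the first 3. H3K4me3, trimethylation of lysine 4 on histone H3, marks nucleosomes around the start sites of active and poised genes and is broader at CpG islands, stretches of DNA rich in CG dinucleotides.

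The start regions of Gria2, Grik3, Grik4 and Grik5 are shown because the position of the mark differed among them. The strongest summit inside Gria2 and Grik3 lay over 1 kb downstream of the RefSeq start, and that of Grik4 and Grik5 lay within 0.5 kb of it. The sequences are from RefSeq (GRCm38.p6, the same primary assembly as mm10), on the strand of the gene, with 250 bases before and 50 after the start, and CG dinucleotides in capitals. They cover chr3:80802786-80803085 on the minus strand for Gria2, chr4:125490446-125490745 on the plus strand for Grik3, chr9:42944322-42944621 on the minus strand for Grik4 and chr7:25072320-25072619 on the minus strand for Grik5.
Gria2: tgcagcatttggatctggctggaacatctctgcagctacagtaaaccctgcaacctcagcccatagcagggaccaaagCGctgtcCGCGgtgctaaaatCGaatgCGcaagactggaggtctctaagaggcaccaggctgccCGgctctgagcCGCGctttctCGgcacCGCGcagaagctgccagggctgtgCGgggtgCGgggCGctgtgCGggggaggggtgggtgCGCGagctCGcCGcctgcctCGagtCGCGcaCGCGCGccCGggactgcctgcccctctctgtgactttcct
Grik3: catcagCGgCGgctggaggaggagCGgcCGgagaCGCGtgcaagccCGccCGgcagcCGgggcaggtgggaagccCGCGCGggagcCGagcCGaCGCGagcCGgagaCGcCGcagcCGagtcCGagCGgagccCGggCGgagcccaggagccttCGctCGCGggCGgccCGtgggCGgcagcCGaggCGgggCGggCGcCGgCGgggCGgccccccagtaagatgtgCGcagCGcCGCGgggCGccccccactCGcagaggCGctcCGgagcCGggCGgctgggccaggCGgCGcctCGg
Grik4: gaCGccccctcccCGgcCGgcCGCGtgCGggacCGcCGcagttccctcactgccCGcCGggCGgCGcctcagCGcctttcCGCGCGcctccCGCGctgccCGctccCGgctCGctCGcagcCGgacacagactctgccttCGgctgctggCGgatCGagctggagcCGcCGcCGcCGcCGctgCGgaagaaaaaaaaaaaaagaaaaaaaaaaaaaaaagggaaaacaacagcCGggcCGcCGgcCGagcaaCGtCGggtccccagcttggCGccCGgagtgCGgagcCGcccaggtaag
Grik5: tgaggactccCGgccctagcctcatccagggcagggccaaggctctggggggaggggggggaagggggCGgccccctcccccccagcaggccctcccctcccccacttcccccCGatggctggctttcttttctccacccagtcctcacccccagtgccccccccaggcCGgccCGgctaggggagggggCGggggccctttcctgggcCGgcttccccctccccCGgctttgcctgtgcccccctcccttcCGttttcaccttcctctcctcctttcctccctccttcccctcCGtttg
The windows held 26 CG dinucleotides at Gria2, 50 at Grik3, 42 at Grik4 and 10 at Grik5, against a median of 7 over 32851 promoter windows of the same length. At Grik3 the count exceeded that of 99.1% of all windows, and at Grik5 that of 56.5%. Among protein-coding genes with 1 promoter entry and a summit, the quartiles of this count were 0 to 12, 13 to 20, 21 to 28 and 29 to 65. Of these, Grik5 fell in the lowest, Gria2 in the range 21 to 28, and Grik3 and Grik4 in the highest. Windows were also matched for Gria4 (17 CG dinucleotides) and Grik2 (26), so that 6 of the 9 genes had a sequence. The GC box GGGCGG, bound by Sp1-type factors, was present on either strand in 3 of these 6 windows (Grik3, Grik4 and Grik5) and in 35.7% of all windows. The NRF1 core TGCGCA was present in 2 of 6 (Gria2 and Grik3) and in 7.76% of all. Neither the cAMP response element TGACGTCA (1.79% of all windows) nor TATAAA (13.6%) had a match in the 6 windows. Both strands were searched, no motif contains another, and a match describes the letters only.

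Between 4512817 and 10887911 reads fell on all summits per library, and a single member summit held 1 to 185 reads in a library. SDS10 replicate 2 had the widest spread of values (SD 40.1 normalised reads over all summits, against 29.8 to 33.3 in the other libraries) and a median correlation of 0.791 with the others, and SDS30 replicate 2 had the lowest, 0.767. Of the marker lists, summits were present at all 5 excitatory neuron, inhibitory neuron, astrocyte and endothelial markers and at 2 of 5 microglial markers (none at Cx3cr1, Csf1r or Aif1). Markers of striatal neurons, a neighbouring tissue, had summits at 5 of 5. In bulk tissue, fewer cells of a type and less of the mark per cell cannot be told apart.

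The mark formed 1 cluster of summits at the start of Gria2, Gria4 and Grik3 and near 1 boundary of Gria3 and Grik1, and more than 1 cluster at Gria1, Grik2, Grik4 and Grik5 when summits over 2 kb apart were separated. Gria2 (chromosome 3, 80681450 to 80804227) had 21 summits in a cluster that spanned 5493 bp. Its main called region held 17 summits, with 3007 bp from the first to the last. That distance was larger than in 99.4% of all called regions, of which 43.6% held 1 summit and so had a distance of 0. In the main region of Grik5 (14 summits over 2770 bp) it was larger than in 99.2%. In that of Gria4 (14 summits over 2218 bp) it was larger than in 98.2%. Neighbouring member summits lay 191.5 bp apart in the median; reads were 100 bp long, the window in which they were counted is not given, and summits of a gene are not taken as independent values. The gene table gives boundaries without exons, so summits inside a gene are not assigned to exons or introns.

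**Figure D1:**
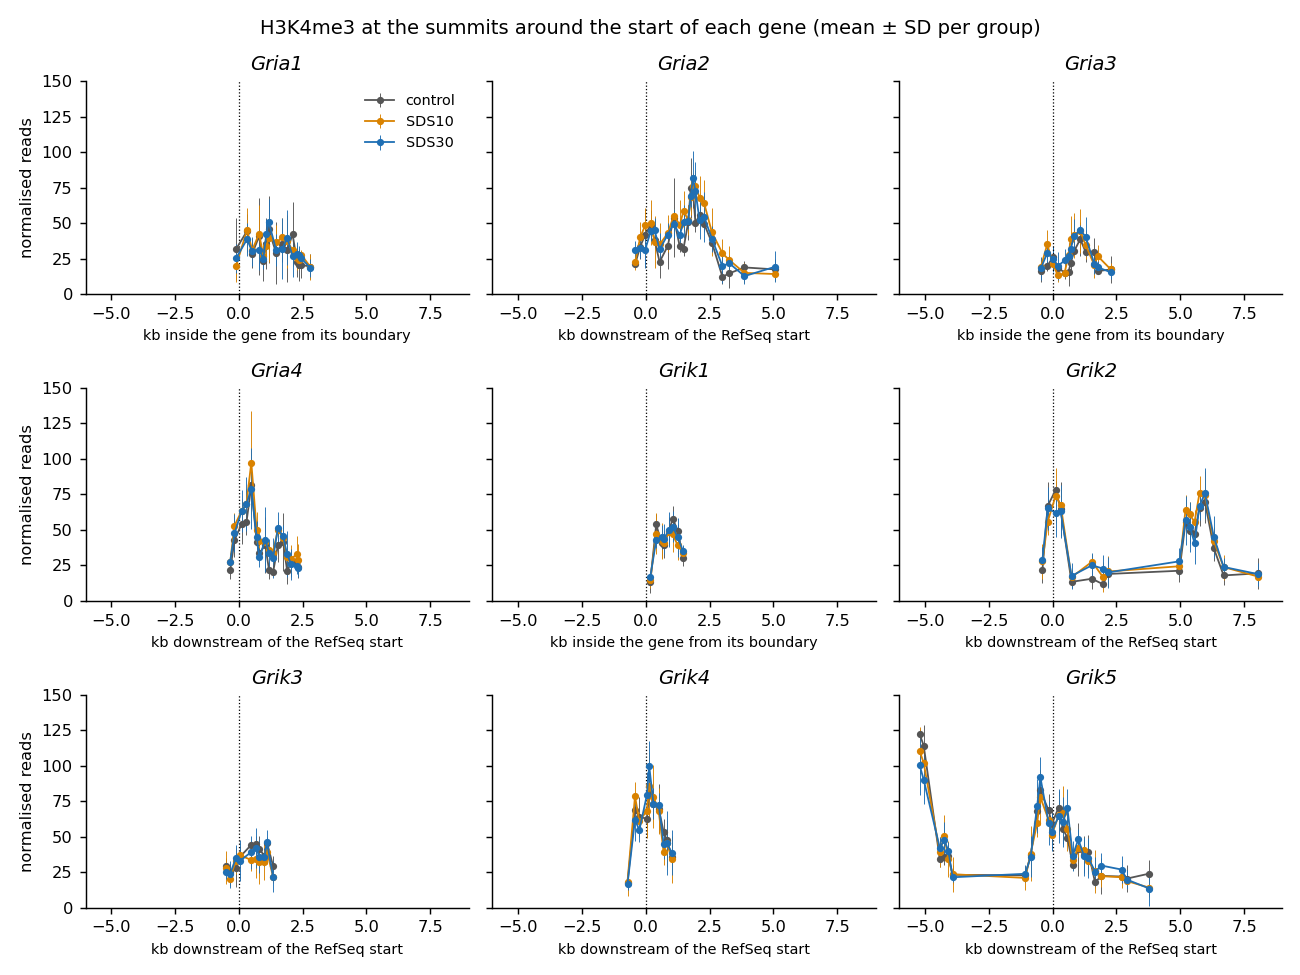
Mean normalised reads (± SD) per summit in control (3 libraries), SDS10 (5) and SDS30 (5) against the distance in kb from the RefSeq start, or from the nearest gene boundary for Gria1, Gria3 and Grik1, whose start is not in the promoter table. The tallest point of Gria2 lies 1851 bp downstream of the RefSeq start, and Grik2 has 2 clusters of similar height. The left-hand cluster in the Grik5 panel lies inside the neighbouring gene Zfp574. Summits farther away, such as the internal cluster of Grik4, are not drawn.

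The strongest summit of Gria2 lay 1851 bp downstream of its start, at position 80800984. Among 8815 genes with 1 promoter entry and their strongest summit within 5 kb of it, the median distance was 143 bp downstream (interquartile range 72 to 320.5 bp), and 97.1% had a smaller distance than Gria2. Distances were signed, so a strongest summit upstream of the start counted as a smaller distance. The summit nearest to the Gria2 start, at position 80802854, averaged 40.4 normalised reads over the 13 libraries, against 77.6 for the strongest. At Grik3 (chromosome 4, 125490259 to 125714173) the strongest summit lay 1107 bp downstream, a larger signed distance than in 95.2% of genes. At Gria4 (chromosome 9, 4417893 to 4796234) it lay 492 bp downstream, a larger signed distance than in 84.7%. Beyond the start of Gria4 lies the non-coding gene Gm46100 (4796304 to 4800157). Grik4 (chromosome 9, 42518182 to 42945000), with its strongest summit 140 bp downstream, stood near the middle of all genes (47.9% had a smaller distance). Grik5 (chromosome 7, 25009849 to 25075694) had its strongest internal summit 480 bp upstream of the RefSeq start, where only 6.00% of genes lay farther upstream. The genes it was set against were placed by their strongest summit within 2 kb of the gene. For Grik5 that summit lay 5207 bp upstream, inside the neighbouring gene Zfp574 and outside the 5 kb window. The start used for Grik5, 25072369, is not its 5′ boundary, so its strongest internal summit lies upstream of that start but inside the gene. The listed starts of Gria2, Grik2, Grik3 and Grik4 also lay inside the gene boundary. Each distance is from the listed start, and other starts of these genes were not examined.

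Grik2 and Grik4 carried a second cluster inside the gene that was about as high as the one at the start. In Grik2 (chromosome 10, 49093680 to 49790161), the summit 121 bp downstream of the start averaged 70.4 normalised reads over 13 libraries and the one 5965 bp downstream averaged 73.9. The internal summit was the higher of the pair in 6 of 13 libraries, so the order did not hold between libraries. In Grik4, the start summit averaged 89.8 and the summit 46560 bp downstream averaged 86.9, and the internal summit was the higher in 7 of 13 libraries. Another, smaller Grik4 cluster of 3 summits lay near the 3′ boundary, 423519 bp from the start, and averaged 45.0 at its strongest; it was below both of the others in all 13 libraries. Grik5 had 5 summits around its 3′ boundary, with a strongest value of 31.5, and 6 summits beyond its 5′ boundary that lie inside Zfp574, a zinc finger gene (25075674 to 25083492). The strongest of the latter averaged 109.3 and would be the strongest Grik5 summit by distance alone, above the summit inside Grik5 in 12 of 13 libraries. Gria1 (chromosome 11, 57011571 to 57330244) had 1 isolated summit at position 57176145, 163.4 kb from its strongest summit, which averaged 12.96.

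Levels were compared as the strongest summit inside each gene, since sums depend on how many summits a gene has. In normalised reads over 13 libraries, Grik4 averaged 89.8, Gria4 86.6, Grik5 84.3, Gria2 77.6 and Grik2 73.9. The other 4 genes averaged 51.5 for Grik1, 45.2 for Gria1, 43.4 for Grik3 and 43.3 for Gria3. Neighbours in this order did not differ beyond their spread between libraries except at 1 place: Grik2 stood above Grik1 in 13 of 13 libraries, by 22.4 ± 14.1 (SD, n = 13), while every other gene stood above the next in 5 to 9 of 13. Both subunit classes were found on each side of this gap. Grik4, the highest of the 9, stood above 40.9% of 15248 protein-coding genes with a summit, and Gria3, the lowest, above 12.0%. Those protein-coding genes were ranked by their strongest summit within 2 kb. By that rule the summit of Grik5 was the one inside Zfp574, which averaged 109.3 and stood above 65.1%. At the other receptor genes both rules gave the same summit.

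**Figure D2:**
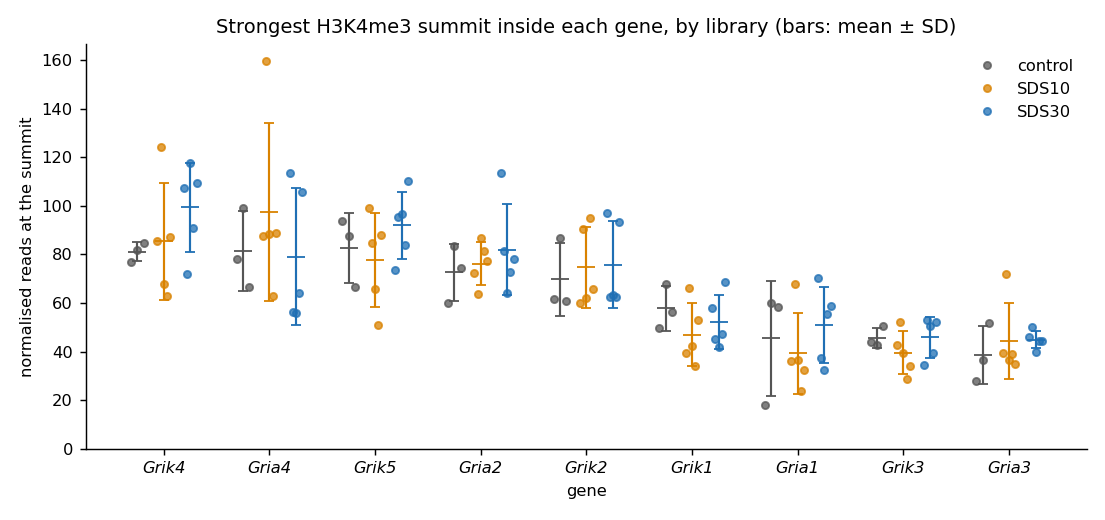
Normalised reads at the strongest summit inside each gene (linear axis from 0), with 1 point per library and the mean ± SD of control (3 libraries), SDS10 (5) and SDS30 (5), ordered by the mean over 13 libraries. The 3 groups overlap in every gene; the point at 160 for Gria4 is SDS10 replicate 2 and the point at 18.2 for Gria1 is control replicate 1.

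The 3 groups overlapped at the strongest internal summit of each AMPA receptor gene. With SDs over 3, 5 and 5 libraries, Gria1, whose GluA1 subunit is delivered to synapses during plasticity, had 45.5 ± 23.7 in control, 39.4 ± 16.7 in SDS10 and 51.0 ± 15.7 in SDS30. Its control libraries read 18.2, 59.9 and 58.5, so that control replicate 1 was the lowest of all 13. Gria2 had 72.7 ± 11.8, 76.2 ± 8.84 and 82.0 ± 18.8 in the same order. Gria3 (chromosome X, 41400819 to 41678601) had 38.7 ± 12.0, 44.4 ± 15.5 and 45.0 ± 3.62, and Gria4 had 81.3 ± 16.5, 97.4 ± 36.4 and 79.1 ± 28.2. The high SDS10 mean and SD of Gria4 came with 1 library, since its SDS10 values were 87.8, 160, 88.5, 62.7 and 88.6.

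The kainate receptor genes overlapped between groups too, with SDs over 3, 5 and 5 libraries. Grik1 (chromosome 16, 87895901 to 88290863) had 57.8 ± 9.19 in control, 47.0 ± 12.8 in SDS10 and 52.2 ± 11.03 in SDS30. Grik2 had 69.7 ± 14.9, 74.6 ± 16.6 and 75.7 ± 17.9 at its internal summit, and 78.2 ± 6.60, 74.1 ± 19.2 and 62.0 ± 17.1 at its start summit. Grik3 had 45.7 ± 4.19, 39.5 ± 8.88 and 45.9 ± 8.46. For the subunits that need a partner, Grik4 had 81.1 ± 4.01, 85.4 ± 24.2 and 99.4 ± 18.3, and Grik5 had 82.6 ± 14.3, 77.7 ± 19.2 and 91.9 ± 13.9. None of the 9 genes passed the test in any of the 3 comparisons at these summits (limma on log2 of normalised reads + 1, Benjamini-Hochberg over all summits, threshold 0.05).

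The summed signal of the AMPA receptor genes differed most between single libraries. Over the 66 summits the sum was 1608.5, 2640 and 2275.2 normalised reads in control replicates 1, 2 and 3, between 2181.9 and 3356.7 in SDS10, and between 2027.8 and 3128.3 in SDS30. Control replicate 1 had the lowest sum of the 13 libraries at each of the 4 AMPA receptor genes, while it held the most reads in total. SDS10 replicate 2 had the highest AMPA sum, 3356.7, and SDS30 replicate 1 followed with 3128.3. In control replicate 1 the median deviation of the AMPA summits from their mean over libraries was -0.57 on the log2 scale, that of the kainate summits was -0.12, and that of all summits was 0.02. The kainate sum ranged only from 3228.8 in SDS10 replicate 4 to 4315.8 in SDS30 replicate 5, and control replicate 1, at 3326.7, was not its lowest.

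**Figure D3:**
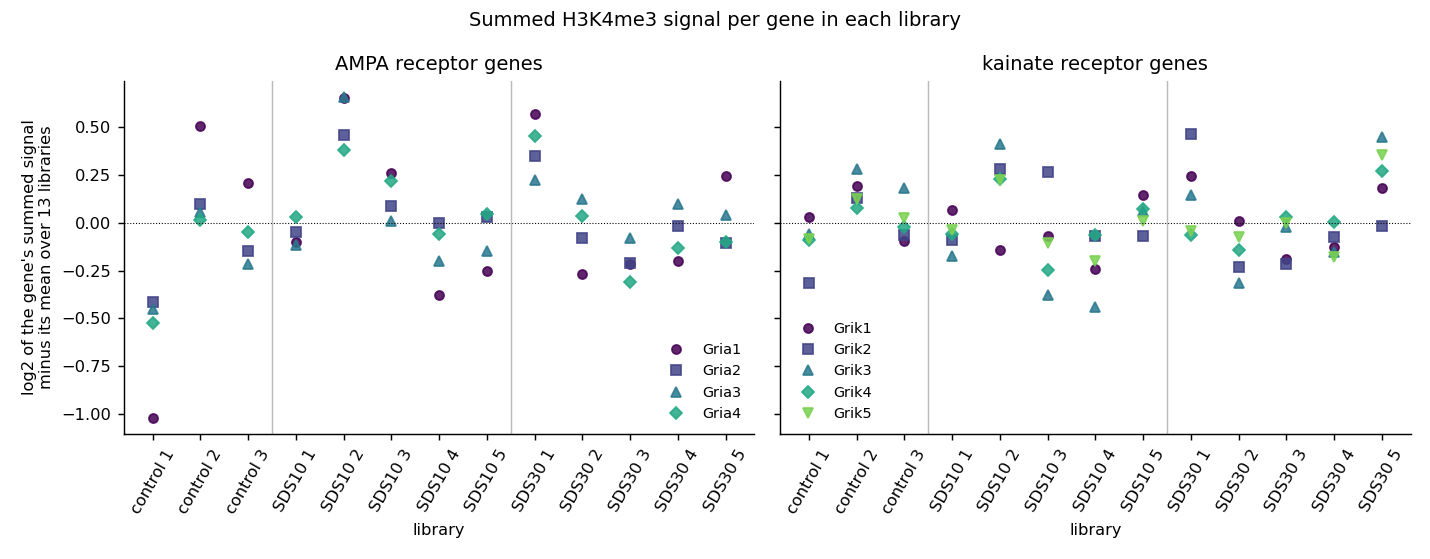
Log2 of the summed normalised reads of each gene minus its mean over 13 libraries (vertical axis), by library (horizontal axis), for the AMPA (left) and kainate (right) receptor genes, with 1 symbol per gene and lines between the groups. All 4 AMPA symbols are at their lowest in control 1, and the 2 highest values of each are in SDS10 2 and SDS30 1; no library holds the lowest value of all 5 kainate genes.

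The comparison of SDS10 with control asked whether 10 days of defeat changed the mark. No member summit passed, and none of the 152270 tested summits did (limma, smallest adjusted p = 0.9999 at the members; edgeR and DESeq2 also called 0; their unadjusted p was under 0.05 at 4588 and 5410 summits). Below that threshold, 12 of the 149 member summits had an unadjusted p under 0.05 in limma, all of them higher in SDS10, against a background of 4891 summits, 3.21% of all tested (1.99% higher). Of these, 11 were among the 66 AMPA summits and 1 was among the 83 kainate summits. The log2 fold change was above 0 at 53 of 66 AMPA summits, with a median of 0.23, and at 37 of 83 kainate summits, with a median of -0.04; over all tested summits it was above 0 at 50.3%, with a median of 0.00. Without control replicate 1, the AMPA count was 6, with 3 of them higher, 33 of 66 summits were above 0 and the median was -0.01, while the share of all tested summits at an unadjusted p under 0.05 was 4.6% (3.12% higher). Without SDS10 replicate 2, the AMPA count was 8, with 7 higher, 45 of 66 were above 0, and the share over all summits was 4.51% (2.78% higher). Over all fits with 1 library left out, the AMPA count ranged from 6 to 14. It was 14 without control replicate 2, where the share over all summits was 2.93% (1.84% higher).

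The kainate count of 1 was 3 without control replicate 1, 7 without SDS10 replicate 2 and 2 without SDS10 replicate 4, where the share over all summits was 3.15%. It was 1 without any of the other 10 libraries. The difference between the receptor classes was not tested.

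The cell type markers were read at the strongest summit of each gene, and none passed in SDS10 against control. The log2 fold change was above 0 at 4 of 5 excitatory neuron markers (median 0.06), 1 of 5 inhibitory neuron markers (median -0.26), 4 of 5 astrocyte markers (median 0.24) and both microglial markers with a summit (median 0.32). It was above 0 at 1 of 3 oligodendrocyte markers that were tested (median -0.21), 2 of 5 endothelial markers (median -0.002) and 2 of 5 striatal markers (median -0.02); over protein-coding genes the median was 0.01. An unadjusted p under 0.05 was found at 2 of them, and at 2.8% of protein-coding genes read in the same way. Both are named after their values were seen: Slc32a1, the vesicular transporter of inhibitory neurons, averaged 20.6 ± 7.06 in the controls and 31.7 ± 5.94 in SDS10, and Mal, a myelin protein gene, 65.8 ± 15.9 and 44.9 ± 12.9 (SDs over 3 and 5 libraries). The summed level of the astrocyte markers ranged from 215 to 296 normalised reads in control and from 210.3 to 307 in SDS10, and that of the microglial markers from 29.5 to 41.2 and from 38.6 to 65.9. The summed level of the inhibitory neuron markers ranged from 157 to 168 in control and from 100.2 to 187 in SDS10. The part of these cells in the AMPA values was not tested.

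Gria2 held the AMPA summit with the smallest p-value, at position 80801353, 1482 bp downstream of the start. It read 34.2, 35.6 and 26.4 in control, 40.2, 74.8, 50.8, 57.6 and 69.1 in SDS10, and 54.8, 65.6, 50.5, 50.5 and 33.3 in SDS30. All 5 SDS10 libraries stood above the 3 control libraries, and 4 of the 5 SDS30 libraries did. The means were 32.1 ± 4.99 (SD, n = 3) and 58.5 ± 13.9 (SD, n = 5), a log2 fold change of 0.83 ± 0.24 (SE) that did not pass (limma, adjusted p = 0.9999). It lay between 0.70 and 0.95 without any 1 library.

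A neighbouring Gria2 summit at position 80800886, next to the strongest one, read 48.2, 57.3 and 44.7 in control and 62.3, 83.3, 79.1, 89.8 and 66.7 in SDS10, again without overlap. Its log2 fold change was 0.59 ± 0.21 (SE). At position 80799828, 3007 bp downstream, the values were 6.99, 12.2 and 17.2 in control and 22.1, 19.8, 27.3, 45.7 and 28.5 in SDS10, a log2 fold change of 1.198 ± 0.406 (SE). These are low levels, at the tail of the cluster. The fourth Gria2 summit, at position 80799570, had 14.5 ± 10.3 (SD, n = 3) and 24.1 ± 9.53 (SD, n = 5), and its groups overlapped. At the strongest Gria2 summit itself the log2 fold change was 0.07, and -0.06 without control replicate 1.

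Gria3 had 4 such summits, which averaged 21.3 to 32.3 over 13 libraries, below the 43.3 of its strongest summit. The one at position 41400609, 210 bp outside the gene boundary, read 16.1, 22.6 and 20.6 in control and 25.4, 52.2, 34.8, 33.9 and 28.5 in SDS10. The groups did not overlap, and the highest value was again SDS10 replicate 2. The summits at positions 41401443, 41401531 and 41402583 differed by 0.89 ± 0.36, 0.72 ± 0.31 and 0.66 ± 0.32 (SE) on the log2 scale, and only the last did not overlap. Gria4, which encodes the subunit typical of fast-spiking interneurons, had 2: at position 4794890 it read 18.9, 21.7 and 19.5 in control and 41.0, 35.3, 34.8, 33.9 and 25.2 in SDS10, and at position 4795050 it had 21.8 ± 6.10 (SD, n = 3) and 35.5 ± 4.92 (SD, n = 5). Neither pair of groups overlapped. All 16 Gria4 summits had a log2 fold change above 0 (0.13 to 0.72).

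At Gria1, the isolated internal summit read 11.2, 3.47 and 4.58 in control and 6.56, 24.0, 17.9, 16.9 and 10.6 in SDS10. The groups overlapped, and the log2 fold change of 1.15 ± 0.53 (SE) was at a level of few reads. The 1 kainate summit was in Grik2, at position 49787212 between its 2 high clusters, with 15.6 ± 7.56 (SD, n = 3) in control and 27.6 ± 5.48 (SD, n = 5) in SDS10. Grik3 pointed the other way without any small p-value, with 8 of its 10 summits below 0 and a median of -0.29. Groups did not overlap at 8 member summits, 7 higher and 1 lower, against 2.98% of all tested summits (1.59% higher and 1.4% lower). The lower one, at position 25010387 at the 3′ end of Grik5, is named because it was single, after its values were seen: it read 47.5, 36.5 and 36.7 in control and 32.8, 25.4, 33.9, 33.9 and 26.0 in SDS10.

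**Figure D4:**
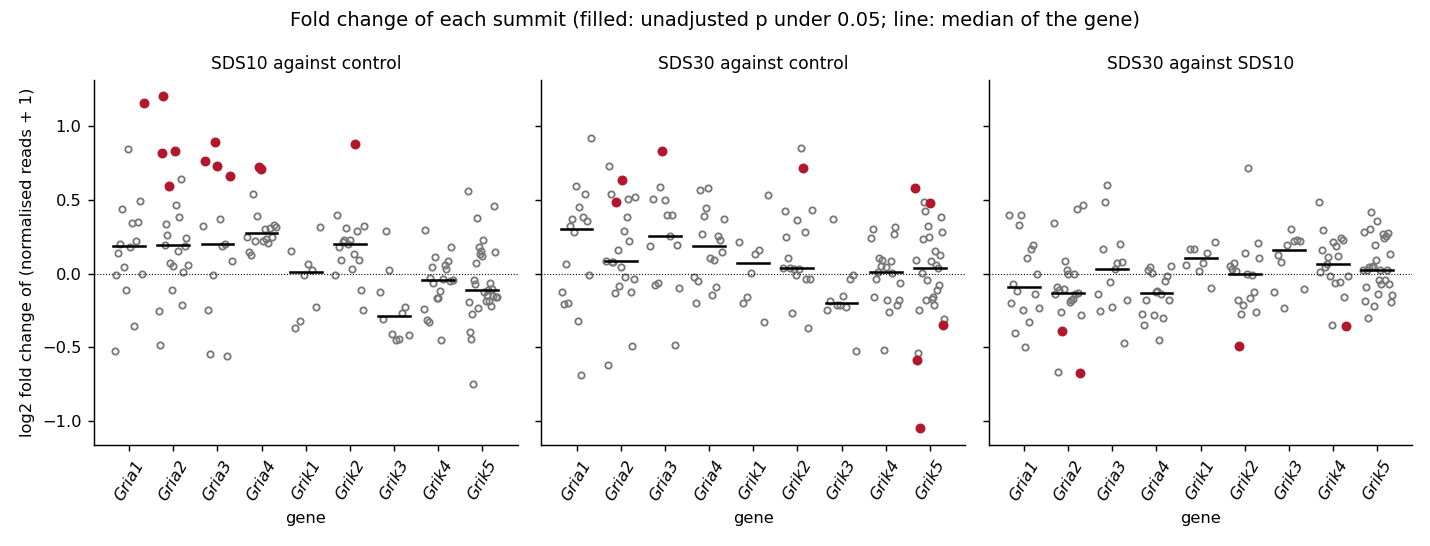
Log2 fold change of (normalised reads + 1) for each of the 149 summits, by gene and comparison; filled red points have an unadjusted p under 0.05 (limma), open points do not, and the black line is the median of the gene. In SDS10 against control 11 of the 12 filled points are at AMPA receptor genes and all are above 0; none passed after adjustment.

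SDS30 was compared with control in the same way, for 30 days of defeat. Again no member summit and no other summit passed (limma, smallest adjusted p = 0.99998 at the members; edgeR and DESeq2 called 0; their unadjusted p was under 0.05 at 4965 and 5753 summits). An unadjusted p under 0.05 was found at 9 of 149 member summits, 6 higher and 3 lower, against a background of 3.41% of all tested summits (1.44% higher and 1.97% lower). They were 3 AMPA and 6 kainate summits. The log2 fold change was above 0 at 44 of 66 AMPA summits (median 0.21), 45 of 83 kainate summits (median 0.01) and 50.8% of all tested summits. Without control replicate 1, it was above 0 at 33 of 66 AMPA summits, with a median of 0.01. The AMPA count was 8 without control replicate 2, 5 without control replicate 3, 6 without SDS30 replicate 4 and 7 without SDS30 replicate 5. In these fits the share of all tested summits was 2.72%, 2.24%, 3.12% and 5.67%, respectively. The kainate count was 1 without control replicate 1, 2 without control replicate 3 or SDS30 replicate 4, and 3 without SDS10 replicate 1 or SDS30 replicate 1, 2 or 3. The share over all summits was 5.09% without control replicate 1, and 2.22% to 3.74% in the other fits of that list. Without SDS30 replicate 5 the kainate count was 8 and the share over all summits was 5.67%.

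The 3 AMPA summits were in Gria2 and Gria3. Both comparisons with control use the same 3 control libraries. Gria2 at position 80800886 read 103, 62.5, 47.3, 72.7 and 76.8 in SDS30, 0.49 ± 0.21 (SE) above control on the log2 scale. The value of replicate 3 lay within the control range and the other 4 above it. Gria2 at position 80801353 had 50.9 ± 11.6 (SD, n = 5), a log2 fold change of 0.63 ± 0.24 (SE). Gria3 at position 41401443 had 27.0 ± 8.99 (SD, n = 5) against 15.7 ± 9.75 (SD, n = 3), and its groups overlapped.

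Grik5 held 5 of the 6 kainate summits, 2 higher and 3 lower, spread over its 3 clusters. Near the start, 580 bp downstream at position 25071789, it read 48.9, 53.0 and 45.8 in control and 58.7, 78.1, 52.6, 77.0 and 83.3 in SDS30, a log2 fold change of 0.48 ± 0.22 (SE). SDS30 replicate 3 lay inside the control range and the other 4 above it. At position 25008974, beyond the 3′ boundary, the values were 21.1 ± 5.26 (SD, n = 3) and 31.7 ± 4.96 (SD, n = 5), and the groups did not overlap. Lower values were found at position 25068581, 3788 bp downstream of the start (24.0 ± 9.43 against 13.5 ± 12.6, log2 fold change -1.05 ± 0.48 SE), at position 25010387 (40.2 ± 6.31 against 27.4 ± 8.27) and at position 25077417 inside Zfp574 (114 ± 14.8 against 90.1 ± 17.4). The 29 Grik5 summits had a median log2 fold change of 0.04, with 16 above 0. In Grik2, the summit at position 49787212 had 25.1 ± 8.75 (SD, n = 5), and at position 49786784 the SDS30 values of 38.37, 21.87, 19.98, 19.68 and 13.77 did not overlap the control values of 8.385, 13.03 and 13.75, though the log2 fold change of 0.85 ± 0.51 (SE) had a wide interval, -0.19 to 1.89. The third summit without overlap was Gria3 position 41401665 (41.2 ± 11.4 against 30.3 ± 2.46), named for completeness of the 3. All tested summits gave 2.96% without overlap (1.23% higher).

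SDS30 was then compared with SDS10 to see whether the durations differed. No member summit passed (limma, smallest adjusted p = 0.963), and no summit of the table did (edgeR and DESeq2 made no call either; their unadjusted p was under 0.05 at 6752 and 7795 summits). An unadjusted p under 0.05 was found at 4 of 149 member summits, all lower in SDS30, against a background of 5.12% (3.11% lower). They were Gria2 at position 80802854, 19 bp before the start (31.4 ± 12.96 against 48.4 ± 12.3), Gria2 at position 80800723 (51.9 ± 13.1 against 67.8 ± 15.2), Grik2 at position 49783197 (40.8 ± 14.9 against 55.5 ± 8.23) and Grik4 at position 42944789 (62.0 ± 14.9 against 78.5 ± 10.1), each SD over 5 libraries. Groups overlapped at all 149, and did not at 0.72% of all tested summits. The median log2 fold change was -0.12 over the AMPA summits (22 of 66 above 0) and 0.05 over the kainate summits (52 of 83 above 0); 49.9% of all tested summits were above 0. Without SDS10 replicate 2, 35 of 66 AMPA summits were above 0 and the median was 0.01. The AMPA count of 2 was 5 without SDS10 replicate 2 or SDS30 replicate 1, 6 without SDS30 replicate 5 and 1 without control replicate 3. The share of all tested summits was 4.44%, 6.9%, 6.23% and 4.71% in these 4 fits. The kainate count of 2 was 4 without SDS10 replicate 2, 0 without SDS10 replicate 5, and 1 without SDS10 replicate 4 or SDS30 replicate 2 or 3, against shares of 3.27% to 6.11% over all summits.

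Markers of cell types were read in both SDS30 comparisons as well, and none passed. Against control, the log2 fold change was above 0 at 1 of 5 excitatory neuron markers (median -0.13), 4 of 5 inhibitory neuron markers (median 0.09), 4 of 5 astrocyte markers (median 0.06) and 3 of 5 endothelial markers (median 0.05). Both microglial markers (median 0.33), 1 of 3 oligodendrocyte markers (median -0.13) and 1 of 5 striatal markers (median -0.16, lowest -0.81) were above 0. The median over protein-coding genes was -0.07. No marker had an unadjusted p under 0.05 there, against 4.91% of protein-coding genes. Against SDS10, 4 of 5 inhibitory neuron markers (median 0.35), 2 of 5 excitatory neuron markers (median -0.11), 1 of 5 astrocyte markers (median -0.17), 3 of 5 endothelial markers (median 0.05), 1 of 2 microglial markers (median 0.005), 3 of 3 oligodendrocyte markers (median 0.08) and none of 5 striatal markers (median -0.14) were above 0, and the median over protein-coding genes was -0.08. The unadjusted p was under 0.05 at 3 of these, and at 9.74% of protein-coding genes read in the same way. The 3 are named after their values were seen: the excitatory neuron gene Tbr1 (39.1 ± 16.6 in SDS30 against 56.1 ± 17.2 in SDS10), the interneuron gene Lhx6 (50.5 ± 9.05 against 36.98 ± 7.33) and the endothelial gene Pecam1 (37.2 ± 6.27 against 25.9 ± 5.41). The part of these cells in the receptor values was not tested.

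When the summits of a gene were summed before the test, again none of the 9 genes passed. Nearest in SDS10 against control were Gria4, at 0.31 ± 0.15 (SE) on the log2 scale with a 95% interval of -0.005 to 0.63, and Gria2, with 0.26 ± 0.13 (SE) and an interval of -0.02 to 0.54 (limma, adjusted p = 0.997 for each). Grik4 had the narrowest interval, -0.21 to 0.21 around a log2 fold change of 0.00. In SDS30 against control the sums ranged from -0.11 for Grik3 to 0.28 for Gria3. For single member summits, the unadjusted 95% interval of a log2 fold change against control reached 0.59 to either side in the median, 0.65 at AMPA and 0.55 at kainate summits. The test after adjustment over all summits is stricter than this interval, and the differences of 0.83 and 1.198 at Gria2 in SDS10 did not pass.

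The spread within a group was larger in the median at AMPA summits and, less so, at kainate summits than over all summits. Among summits with a mean of at least 20 normalised reads, the coefficient of variation (CV) within a group had a median of 26.9% over 134 member summits and 22.7% over 139475 tested summits. Counting error alone, from the recovered reads, gave 16.3% and 15.1%. The ratio of the measured to the counting CV was 1.69 and 1.52, respectively. AMPA summits had a median CV of 30.6% (58 summits) and kainate summits 24.1% (76 summits). The median ratio to the counting CV was 1.76 at AMPA and 1.61 at kainate summits. These medians are descriptions, not tests. Gria1 was the most variable gene, with a median CV of 37.1%, or 2.26 times counting error, and Grik4 the least, with 21.5% and 1.48 times.

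The 3 summits with the highest CV were in Gria1 and Grik2. Gria1 at position 57011463, just outside the gene boundary, read 10.5, 30.4 and 53.9 in the 3 control libraries, and its CV was 55.1%. Gria1 at position 57013471 (CV 53.9%) ranged from 15.4 to 56.5 in control, from 20.3 to 63.5 in SDS10 and from 21.9 to 64.5 in SDS30. Its ratio to counting error, 3.21, was larger than at 99.7% of summits. The third was Grik2 at position 49786586 (CV 52.1%). The lowest CVs were at Grik4 position 42897430 in the internal cluster (13.9%, 51.7 to 79.9 over all 13 libraries), at Grik5 position 25077417 inside Zfp574 (14.4%) and at Grik1 position 88289400 (14.8%), where the CV was below the 17.5% that counting gives.

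**Figure D5:**
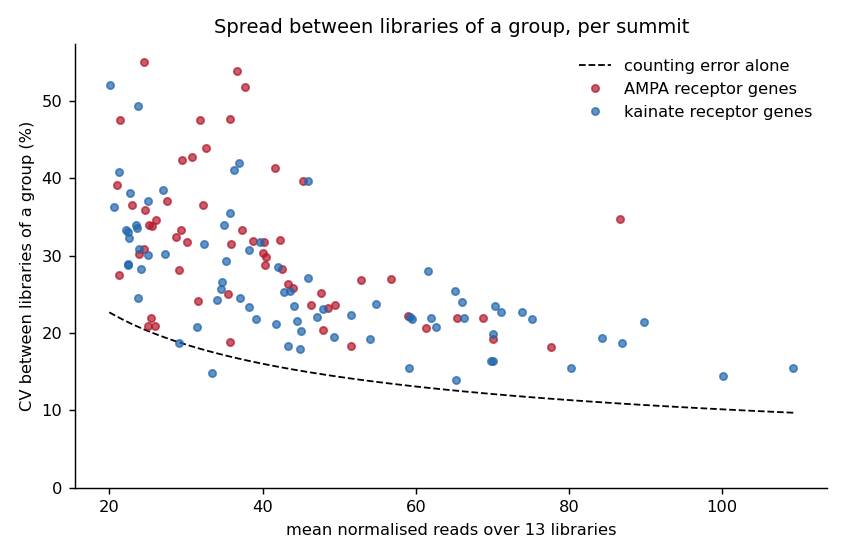
Coefficient of variation within a group, in percent, against the mean normalised reads over 13 libraries for the 134 member summits with a mean of at least 20, with AMPA in red and kainate in blue; the dashed line is the counting error alone. Most points lie above the line, the AMPA points reach 55.1%, and the isolated red point near a mean of 87 is the strongest Gria4 summit.

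The genes of auxiliary subunits and synaptic partners were read from the same fit, at the strongest summit of each gene. All 42 partners had a summit, with a median level of 72.6 normalised reads, against 73.9 over the 9 receptor genes (strongest within 2 kb) and 53.3 over the 7 NMDA receptor genes. None of the 42 passed in any comparison. In SDS10 against control 1 had an unadjusted p under 0.05: Cpt1c, an AMPA receptor interacting protein of the endoplasmic reticulum, with 86.9 ± 11.7 (SD, n = 5) against 65.5 ± 8.73 (SD, n = 3). The strongest summits of 15201 protein-coding genes gave 2.8% (1.78% higher), and 53.3% of them had a log2 fold change above 0, as did 18 of the 42 partners.

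In SDS30 against control 3 partners did, all lower, against 4.91% of protein-coding genes (4.41% lower). They were Cnih3, a cornichon subunit that slows AMPA receptor closing (71.1 ± 14.9 against 95.0 ± 15.8), Neto2, an auxiliary subunit of kainate receptors (68.0 ± 6.77 against 93.5 ± 9.77), and Cacng7, a transmembrane AMPA receptor regulatory protein (87.5 ± 25.3 against 114.5 ± 10.96). Over all protein-coding genes the log2 fold change was above 0 at only 34.1% in this comparison, and over the partners at 15 of 42. In SDS30 against SDS10, Dlg1, which encodes the scaffold protein SAP97, was at 108 ± 24.3 against 139 ± 35.2, with a background of 9.74% (9.03% lower). In that comparison 31.6% of protein-coding genes and 11 of 42 partners were above 0. The 7 NMDA receptor genes had no unadjusted p under 0.05 in any comparison.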

How the data were processed

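H3K4me3 ChIP-seq values of 13 libraries (3 control, 5 SDS10, 5 SDS30) were analysed; the input library was not analysed here. The builds mm10 and GRCm38.p5 and the tools Trimmomatic, Bowtie2, MACS2 and DESeq2 are named, per the submitters' processing notes, without versions or roles. The sources used here do not give the counting window. The deposited signal at each peak summit was made by the authors as reads divided by 1 factor per library: within 0.001 reads, 100% of values are whole multiples of a step per library, from which reads were recovered. A peak score, also deposited (1.58 to 109.7 at the member summits), was made by the authors on an unstated scale and was not tested.

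The 9 genes, the partner list and the marker lists were chosen with earlier results of these data known. Gene boundaries came from RefSeq (GRCm38.p6). Summits were filtered with filterByExpr on the recovered reads (152270 of 153207 kept) and tested with limma 3.58.1 in R 4.3.3 on log2(value + 1) with a variance trend, 1 mean per group over all 13 libraries, and Benjamini-Hochberg adjustment over all summits at 0.05. The scale understates the change of low summits. edgeR 4.0.16 (quasi-likelihood) and DESeq2 1.42.0 on the recovered reads, other scalings, pseudocounts, filters, distances, a block by replicate number and leave-one-out fits were alternatives. Named summits were each gene's strongest, up to 4 more per gene with an unadjusted p under 0.05 or groups without overlap against control, by p, and the 3 highest and 3 lowest CVs; counting errors cover counting only, since reads carry no molecular identifiers. Of the partners, those with an unadjusted p under 0.05 among the 4 smallest p-values per comparison are named. The number of genes with a summit is not reported here for 1 marker list.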

Additional observations from a re-analysis of the deposited data

Results flagged for a closer look

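In 7 of 62 groups of 5 libraries, 1 library stood apart from the other 4 by more than 0.71 of the group's whole range. Chance gives about 1 in 20 separate groups, but these are not separate: a summed signal contains the summits of the same gene, so the 2 shares cannot be compared. In SDS10, 4 of these were values of replicate 2. The strongest Gria3 summit (position 41401900) was 71.99 normalised reads in that library and 34.96 to 39.37 in the other 4, and the strongest Gria4 summit (position 4795742) was 159.5 against 62.68 to 88.63. Its summed signal was 1228 at Gria2 (862.9 to 947.9 in the others) and 530.8 at Gria3 (293.1 to 338.9). SDS10 replicate 2 was also the library with the widest spread of values over all summits; the part of this in the result was not tested. SDS10 replicate 1 was high at the Gria2 summit nearest to the start, 69.72 against 38.96 to 46.58. In SDS30, replicate 1 was low at the internal Grik4 cluster (position 42897811), 70.47 against 89.03 to 94.96, and high in the summed signal of Grik2, 977.2 against 602.9 to 698.5.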

How the results depend on the processing

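No summit, member summit or summed gene was called under any scaling, filter, pseudocount, test, covariate, block or left-out library that was run. The 51 named fold changes gave 578 values of the same direction and 10 reversed values when leaving-out is set aside. With the signal summed over a gene instead of its strongest summit, the log2 fold change turned to 0.14 at Gria1 and -0.0027 at Grik4 (SDS10 against control), 0.18 at Gria4 (SDS30 against control), and -0.011 at Gria1, -0.12 at Gria2, -0.079 at Grik2 and 0.034 at Grik5 (SDS30 against SDS10). Grik3 in SDS30 against control (-0.01) turned to 0.0037 with total-read scaling and 0.000315 with DESeq2. Same-numbered libraries of different groups correlated at -0.29 to 0.37, and differently numbered ones at -0.43 to 0.38. Whether equal numbers pair the libraries cannot be told from these correlations. With the replicate block Grik3 was at 0.089, and the AMPA count at an unadjusted p under 0.05 was 7 instead of 3 in SDS30 against control and 1 instead of 2 in SDS30 against SDS10. With the read total as covariate that count was 7 instead of 11 in SDS10 against control. The kainate count, 1 in SDS10 against control, was 2 with loess and 3 with DESeq2; 6 in SDS30 against control, it was 3 with loess. In SDS30 against SDS10 the AMPA count was also 1 with total-read scaling or only those groups, and the kainate count, 2, was 4 with loess, 1 with only those groups and 0 with edgeR or DESeq2. Counts at that p over all 152270 summits moved too. In SDS10 against control they were 4891 in the main fit, 4074 with the covariate, 5185 with loess and 5410 with DESeq2. In SDS30 against control they were 5194 in the main fit, 4812 with the block and 4542 with loess. In SDS30 against SDS10 they were 7795 in the main fit and with DESeq2, 6630 with the block and 7520 with total-read scaling. There they were 7002 of 152049 with only those groups, 6179 with loess and 6752 with edgeR.

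Leaving out 1 library, in SDS10 against control the strongest summit ranged from -0.66 to 0.17 at Gria1, -0.057 to 0.18 at Gria2, -0.022 to 0.41 at Gria3, -0.0027 to 0.26 at Grik2, -0.11 to 0.13 at Grik4 and -0.26 to 0.031 inside Grik5. In SDS30 against control it ranged from -0.27 to 0.57 at Gria1, -0.24 to 0.061 at Gria4 and -0.065 to 0.087 at Grik3. In SDS30 against SDS10 it ranged from -0.037 to 0.17 at Gria2, -0.0017 to 0.25 at Gria3 and -0.078 to 0.11 at Grik2. The cause of these changes was not tested. Taking the summit nearest to the start moved the level to 40.4 at Gria2, 35.2 at Grik3 and 54.0 at Grik5; taking the strongest inside the gene moved Grik5 from 109.3 to 84.3, an alternative chosen after seeing the data, as were the counts by receptor class. The median residual SD was 0.39 in the main fit, 0.35 with a pseudocount of 5 and at most 0.41 in the other settings. With 1 library left out it was 0.38 to 0.40. The number of member summits was 135 inside genes and 159 within 5 kb. Counting error of 16.3% per summit limits single summits.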
